A study of Mus musculus with 23 samples.

Results

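The genes described here are 10 genes of neutrophil granules and of the neutrophil surface, matched by symbol among the 27179 genes that were counted in liver RNA of 15 female mice. Early granule genes were *Elane* (neutrophil elastase), *Mpo* (myeloperoxidase) and *Prtn3* (proteinase 3), and the 7 late genes were *Camp*, *Ngp*, *Ltf*, *S100a8*, *S100a9*, *Retnlg* and *Csf3r*. Neutrophils build their granules in order as they mature in the bone marrow. Promyelocytes transcribe the azurophil granule genes *Elane*, *Mpo* and *Prtn3* and shut them off, myelocytes and metamyelocytes transcribe the specific granule genes *Ltf*, *Camp* and *Ngp*, and mature cells carry abundant transcripts of *S100a8*, *S100a9*, *Retnlg* and *Csf3r*. Early granule transcripts are therefore scarce in circulating neutrophils, while *S100a8* and *S100a9* are among the most abundant ones. In liver, neutrophils sit mostly in the sinusoids and enter the tissue during injury or tumor growth.

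All mice were described as carrying floxed *Trp53* on both alleles and Cre under the albumin promoter (Alb-Cre), which acts in hepatocytes, so that neutrophils would keep unrecombined alleles. Ctrl mice (n = 6) had wild-type *Braf* and *Icmt* flx/+, that is 1 floxed allele of the gene for isoprenylcysteine carboxyl methyltransferase. ABpIF/+ mice (n = 6) in addition carried a Cre-dependent *Braf* V600E allele in the study's design, which their labels write as BRAF +/+, and ABpIF/F mice (n = 3) carried that allele with *Icmt* flx/flx. The study describes the floxed *Icmt* allele as hypomorphic, that is less expressed also where Cre has not cut it. Unrecombined alleles in neutrophils therefore need not mean normal *Icmt* levels, which were not measured in these cells. Strain names list an allele of *Zc3h12a* marked WT, and the strain label of the Braf mice was shared by only 1 Ctrl mouse, BG3. The tissue was liver free of visible tumors. Ages of the sequenced mice are not stated in the labels. In the study's text ABpIF/F mice bore liver tumors and were of different ages, and some ABpIF/+ mice had visible liver tumors. ABpIF/+ mice also lost weight, which ABpIF/F mice did not, and had more congested liver vessels and more fibrosis. Genotype, age, disease state and tumors elsewhere in the same liver therefore cannot be told apart here. GEO lists 23 samples, since 8 mice are named by 2 samples each, and the tables hold 1 column per mouse. Mice with 2 samples were BG3 in Ctrl, BG175, BG30, BG55 and BG88 in ABpIF/+ and every ABpIF/F mouse, so sample number ran with genotype. Whether a column holds 1 of the 2 samples or both is not given.

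Promoters are shown for the members on which the results turn, the 3 early genes and the pair *S100a8* and *S100a9*, together with *Ngp*. The sequences, from RefSeq on GRCm38.p6, run from 250 bases before to 50 bases after each start site, 5′ to 3′ on the strand of the gene, and all 10 members had one. Capitals mark GAGGAAG, a sequence bound by PU.1, and TTGCNNAA, a sequence of the C/EBP type, each searched on both strands, where the reverse reads CTTCCTC and TTNNGCAA. PU.1 and C/EBP proteins are the transcription factors that drive the granulocyte program.
Elane, chr10:79886062-79886361, plus strand: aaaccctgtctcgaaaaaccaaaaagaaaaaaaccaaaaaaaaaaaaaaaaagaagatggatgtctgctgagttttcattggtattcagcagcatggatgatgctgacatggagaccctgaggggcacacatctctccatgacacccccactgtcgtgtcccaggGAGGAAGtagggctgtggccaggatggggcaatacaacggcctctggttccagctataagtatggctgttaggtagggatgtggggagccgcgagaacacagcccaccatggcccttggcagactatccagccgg
Prtn3, chr10:79879417-79879716, plus strand: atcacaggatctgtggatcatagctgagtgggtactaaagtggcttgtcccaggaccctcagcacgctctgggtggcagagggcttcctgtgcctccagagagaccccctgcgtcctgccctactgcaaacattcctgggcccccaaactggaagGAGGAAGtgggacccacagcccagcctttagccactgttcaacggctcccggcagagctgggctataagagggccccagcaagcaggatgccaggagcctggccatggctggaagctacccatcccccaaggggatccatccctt
Mpo, chr11:87793534-87793833, plus strand: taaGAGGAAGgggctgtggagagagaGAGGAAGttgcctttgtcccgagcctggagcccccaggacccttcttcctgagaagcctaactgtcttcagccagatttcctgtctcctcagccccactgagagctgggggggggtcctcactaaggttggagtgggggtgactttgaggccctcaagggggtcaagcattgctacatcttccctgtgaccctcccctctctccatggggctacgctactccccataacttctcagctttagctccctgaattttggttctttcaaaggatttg
S100a8, chr3:90668821-90669120, plus strand: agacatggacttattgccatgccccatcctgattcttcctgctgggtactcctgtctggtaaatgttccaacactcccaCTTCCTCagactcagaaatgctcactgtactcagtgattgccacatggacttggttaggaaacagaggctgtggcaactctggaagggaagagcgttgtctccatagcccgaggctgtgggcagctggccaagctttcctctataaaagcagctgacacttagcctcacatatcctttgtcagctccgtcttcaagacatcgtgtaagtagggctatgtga
S100a9, chr3:90695672-90695971, minus strand: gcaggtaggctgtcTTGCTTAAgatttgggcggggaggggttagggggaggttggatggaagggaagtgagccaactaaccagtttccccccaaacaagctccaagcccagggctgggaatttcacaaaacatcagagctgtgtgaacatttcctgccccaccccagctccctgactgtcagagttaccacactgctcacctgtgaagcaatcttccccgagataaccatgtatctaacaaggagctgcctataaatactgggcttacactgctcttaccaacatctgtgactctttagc
Ngp, chr9:110419558-110419857, plus strand: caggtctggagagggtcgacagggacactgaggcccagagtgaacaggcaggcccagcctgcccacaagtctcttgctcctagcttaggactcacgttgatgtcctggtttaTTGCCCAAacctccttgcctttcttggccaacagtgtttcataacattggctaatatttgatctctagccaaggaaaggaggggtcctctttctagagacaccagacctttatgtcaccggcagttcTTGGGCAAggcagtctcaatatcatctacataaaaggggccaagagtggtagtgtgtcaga

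GAGGAAG was found in the promoters of 5 members, *Elane*, *Prtn3*, *Mpo*, *S100a8* and *Csf3r*, and in 13.6% of the 32851 promoters of the table. The match started at position -85 from the start site in *Elane* and at -95 in *Prtn3*, in the same orientation, while *Mpo* had 2 matches at -247 and -224. TTGCNNAA was found in 4 members, all late genes, *S100a9*, *Ngp*, *Ltf* and *Retnlg*, and in 10.8% of all promoters. *Ngp* had 2 such matches, at -138 and -11, and the promoter of *Camp* held neither sequence. All 3 early promoters thus held the PU.1 sequence, as did those of the late genes *S100a8* and *Csf3r*. The C/EBP sequence was in none of the 3 in this window. As only 10.8% of all promoters held it, its absence does not set the early genes apart. *Prtn3* and *Elane* are neighbours on chromosome 10. In GENCODE M21 (GRCm38) *Prtn3* runs from 79874476 to 79883174 and *Elane* from 79886247 to 79888215, on the same strand and 3072 bases apart. *Mpo* lies on chromosome 11 from 87793581 to 87804413. *S100a8* (90668978 to 90670035) and *S100a9* (90692632 to 90695721) lie 22596 bases apart on chromosome 3, on opposite strands, and encode the subunits of calprotectin.

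The total count of a mouse was 24742910 at the lowest and 32262649 at the highest. Levels are given as counts or as CPM, counts scaled to a common library size by the TMM method. *Icmt* itself was between 15.2 and 16.6 CPM in the 3 ABpIF/F mice and between 27.8 and 37.4 CPM in the other 12, with no overlap. A gene was called when edgeR's quasi-likelihood test over all 27179 genes gave a Benjamini-Hochberg adjusted p below 0.01 and the log2 fold change was 1 or more in either direction. The ABpIF/F mice differed strongly among themselves in each of the 10 neutrophil genes. BG38 and BG90 stood above BG183, which held 3.80% of the summed CPM of the late genes in this group against 70.6% in BG38 and 25.6% in BG90. Values of the 10 genes in ABpIF/F livers are therefore given mouse by mouse.

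The early granule genes were almost absent from Ctrl livers and present in every ABpIF/+ liver. *Elane* and *Prtn3* were higher in ABpIF/+ than in Ctrl mice, *Mpo* did not pass the adjusted threshold, and in all 3 genes every ABpIF/+ mouse lay above every Ctrl mouse. *Elane*, a serine protease of azurophil granules, had 0 counts in 5 Ctrl mice and 2 counts in malpa462. In ABpIF/+ mice it had 4 counts at the lowest (BG55) and 21 at the highest (BG88), with a median CPM of 0.279. In ABpIF/F mice it had 48 counts in BG38, 29 in BG90 and 1 in BG183. All ABpIF/+ mice were thus above Ctrl, and BG183 lay within the Ctrl range. The log2 fold change of *Elane* was 4.49 ± 0.94 (SE) in ABpIF/+ vs Ctrl, with an adjusted p of 0.000815. As the Ctrl group held 2 counts in all, the ratio of pooled counts was 30.4, with an exact 95% counting interval from 8.04 to 257 that covers counting error only.

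*Mpo*, the enzyme that makes hypochlorous acid in azurophil granules, had 1 count in each of malpa458 and malpa462 and 0 in the other Ctrl mice. The ABpIF/+ mice had 2 counts at the lowest (BG30) and 20 at the highest (BG88), with a median CPM of 0.235. BG38 had 134 counts, BG90 had 81, and BG183 had 0, which allows up to 3. The group of ABpIF/+ mice was separate from Ctrl, while ABpIF/F ran from 0 counts, as in 4 Ctrl mice, to the highest count of all mice. Its log2 fold change in ABpIF/+ vs Ctrl was 4.30 ± 1.2 with an adjusted p of 0.0118, just short of the threshold, and the pooled ratio was 26.8 (7.05 to 227).

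*Prtn3*, a serine protease closely related to elastase, was the most abundant early gene in every mouse. It had between 2 and 22 counts in Ctrl mice, with a median CPM of 0.243. In ABpIF/+ mice it had 95 counts at the lowest (BG175) and 557 at the highest (BG40), with a median CPM of 4.63. The ABpIF/F mice had 1510 counts in BG90, 437 in BG38 and 98 in BG183. *Prtn3* was the only early gene that was above every Ctrl mouse in all 3 ABpIF/F mice. In CPM its mean was 0.301 ± 0.240 (SD, n = 6) in Ctrl, 8.35 ± 7.26 (SD, n = 6) in ABpIF/+ and 23.1 ± 27.1 (SD, n = 3) in ABpIF/F mice. The log2 fold change in ABpIF/+ vs Ctrl was 4.73 ± 0.89 with an adjusted p of 0.0013.

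**Figure D1:**
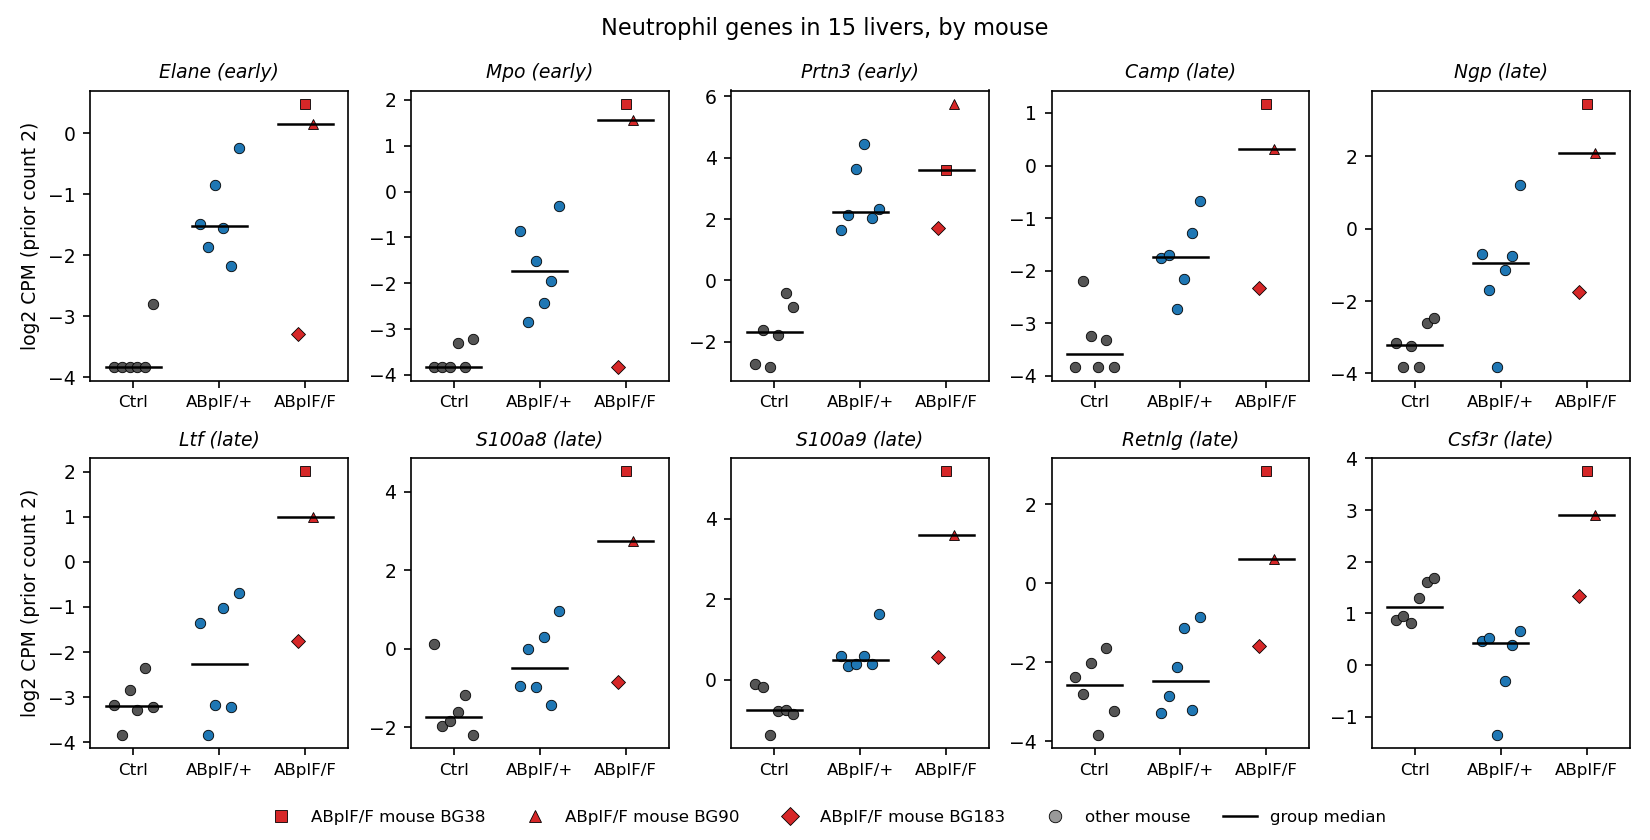
Log2 CPM (prior count 2) of the 10 neutrophil genes in each of the 15 mice, by group, with the group median as a line and the 3 ABpIF/F mice by symbol. The early genes *Elane*, *Mpo* and *Prtn3* are above all Ctrl mice in all 6 ABpIF/+ mice, and BG38 is the highest mouse in every gene except *Prtn3*, where BG90 is.

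Of the 10 genes, 2 were called higher in ABpIF/+ vs Ctrl, both early, where 6.26% of the 20380 genes with a count were called higher. Groups did not overlap, with ABpIF/+ higher, in *Elane*, *Mpo*, *Prtn3* and *S100a9*, that is in 4 of 10 against 10.4% of all genes with a count. An exact permutation test over mice (two-sided) on log2 CPM gave its smallest possible p, 0.00216, for these 4 genes and for *Csf3r*. The median log2 fold change was 4.49 for the early and 1.45 for the late genes, against a median of 0 over all genes with a count. Liver was measured as bulk tissue, so fewer cells of a type and less RNA per cell cannot be told apart. With Ctrl mouse BG3 alone, the Ctrl mouse that shares the strain label of the Braf mice, the log2 fold changes of *Elane*, *Mpo* and *Prtn3* were 6.39, 6.19 and 6.59, and none of the 10 genes was called (adjusted p = 0.175, 0.559 and 0.307). In this fit the lone Ctrl mouse is assumed to vary like the other groups.

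Among ABpIF/+ mice, the one richest in *Prtn3* was not the one richest in its neighbour *Elane* or in *Mpo*. The share of *Prtn3* in the early counts was between 76.6% and 98.2% in ABpIF/+ mice, 93.2% in BG90, 99.0% in BG183 and 70.6% in BG38. BG40, the ABpIF/+ mouse with the most *Prtn3* counts (557), had 7 counts of *Elane* and 3 of *Mpo*. BG88, with the most *Elane* and *Mpo* among ABpIF/+ mice, had 134 counts of *Prtn3*. Across the 15 mice, the correlation of log2 CPM deviations from the group means was 0.93 between *Elane* and *Mpo*, but 0.43 to 0.55 between *Prtn3* and these genes. It was 0.54 to 0.87 between *Elane* or *Mpo* and the 7 late genes and 0.15 to 0.41 between *Prtn3* and the late genes. These are descriptions over 15 mice, and low counts limit them. They rest largely on the ABpIF/F mice, which spread most widely. In log2 CPM *Elane* was at -3.29 in BG183, 0.485 in BG38 and 0.145 in BG90, and *Mpo* at -3.84, 1.92 and 1.57. The first exon of *Prtn3* in GENCODE overlaps the start of *Plppr3* on the opposite strand, and whether the counting used the strand is not stated in the sources used here. *Plppr3* was not called, with log2 fold changes of 0.54 in ABpIF/+ vs Ctrl and 1.05 in ABpIF/F vs Ctrl. The 8 protein-coding genes with a count within 50000 bases of *Prtn3* and *Elane* were looked at after the values of *Prtn3* were seen. In ABpIF/+ vs Ctrl *Med16* and *Ptbp1* had adjusted p-values of 1.28e-06 and 0.00339, but their log2 fold changes of 0.85 and 0.39 were below 1. For the other 6 the adjusted p was 0.077 or more.

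**Figure D2:**
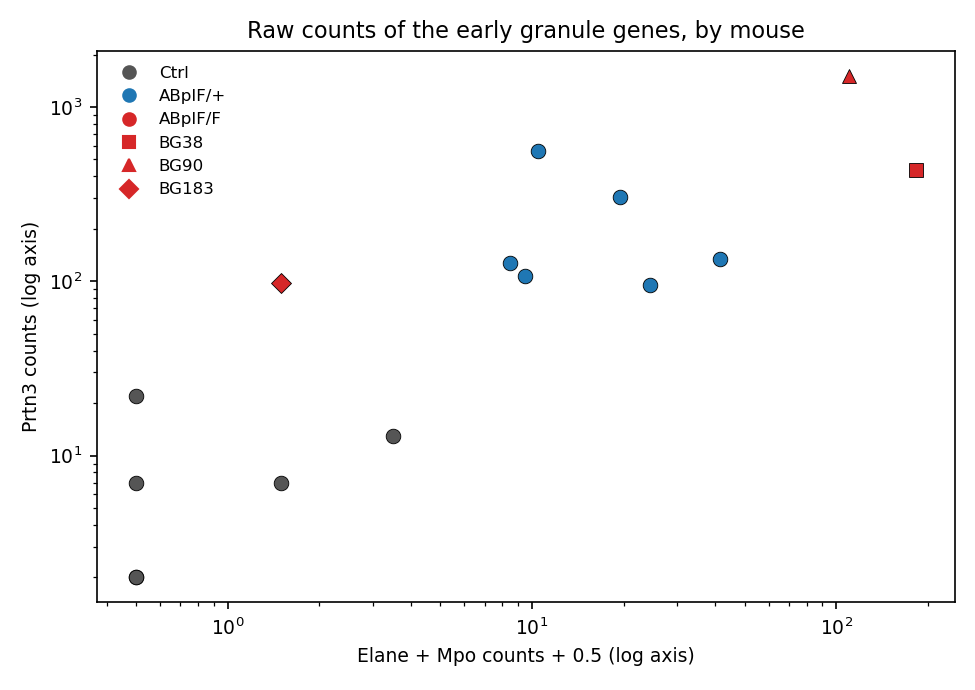
Raw counts of *Prtn3* against the summed counts of *Elane* and *Mpo* plus 0.5 in each of the 15 mice, both axes logarithmic, colored by group and with the ABpIF/F mice by symbol. Ctrl mice have at most 22 *Prtn3* counts, with BG3 and malpa454 at the same point, BG40 has 557 with 10 of *Elane* and *Mpo* together, and BG183 has 98 with 1.

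Per kilobase of exon in GENCODE, the median level of *Prtn3* in ABpIF/+ mice was 2.68 CPM per kb, close to the 2.57 of *S100a9*, and their ranges overlapped (1.75 to 12.4 and 2.29 to 5.79). *Prtn3* took rank 5 of the 10 genes in Ctrl mice by this measure, rank 1 in ABpIF/+ and rank 3 in ABpIF/F mice. *S100a9* was rank 1 in Ctrl (0.998 CPM per kb) and in ABpIF/F mice (23.1), and *Csf3r* was at rank 2 in Ctrl (0.591) and at rank 5 in ABpIF/+ mice (0.354). *Elane* was at a median of 0.284 CPM per kb and *Mpo* at 0.0688 in ABpIF/+ mice, both below *Prtn3* in every ABpIF/+ mouse. RefSeq starts *Prtn3* further downstream than GENCODE, so the exon length used for it may be too long and its level per kilobase too low.

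The specific granule genes were near 0 in Ctrl livers, low in ABpIF/+ livers and high in BG38 and BG90. All 3 missed the threshold of edgeR in ABpIF/+ vs Ctrl, with unadjusted p-values under 0.05, and DESeq2 called *Camp* and *Ngp*. All 3 were called higher in ABpIF/F vs Ctrl. *Camp*, which encodes the antimicrobial peptide cathelicidin, had between 0 and 4 counts in Ctrl mice (median CPM 0.0155). In ABpIF/+ mice it had 2 counts at the lowest (BG31) and 15 at the highest (BG88), with a median CPM of 0.231. The ABpIF/F mice had 79 counts in BG38, 33 in BG90 and 4 in BG183. ABpIF/+ and Ctrl mice overlapped through malpa387, the Ctrl mouse with 4 counts, and BG31. The log2 fold change was 2.76 ± 0.82 in ABpIF/+ vs Ctrl (adjusted p = 0.0138) and 4.88 ± 0.83 in ABpIF/F vs Ctrl (adjusted p = 0.00018).

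*Ngp*, neutrophilic granule protein, had between 0 and 3 counts in Ctrl mice. In ABpIF/+ mice it had 0 counts in BG31, a median CPM of 0.458 and 61 counts in BG88. BG38 had 395 counts, BG90 had 118 and BG183 had 7. The 3 ABpIF/F mice were all above Ctrl, BG183 by the smallest margin, and ABpIF/+ overlapped with both groups. Its log2 fold change was 3.69 ± 1.2 in ABpIF/+ vs Ctrl (adjusted p = 0.0362) and 6.64 ± 1.2 in ABpIF/F vs Ctrl (adjusted p = 0.0013).

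*Ltf*, which encodes the iron-binding protein lactoferrin, had between 0 and 4 counts in Ctrl and between 0 (BG30) and 15 (BG88) counts in ABpIF/+ mice. The ABpIF/F mice had 143 counts in BG38, 54 in BG90 and 7 in BG183. ABpIF/+ mice fell into both ends of the range, with 0 or 1 count in BG30, BG31 and BG55 and at least 10 in BG175, BG40 and BG88. The log2 fold change was 2.04 ± 0.92 in ABpIF/+ vs Ctrl (adjusted p = 0.125) and 5.17 ± 0.91 in ABpIF/F vs Ctrl (adjusted p = 0.000422).

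*S100a8* and *S100a9* had their highest level in BG38. *S100a8* was between 0.149 (malpa462) and 1.03 CPM (BG3) in Ctrl mice, with a median of 0.234. In ABpIF/+ mice it was between 0.302 (BG55) and 1.88 CPM (BG88), with a median of 0.684. The ABpIF/F mice had 22.9 CPM in BG38, 6.61 in BG90 and 0.489 in BG183. *S100a8* in BG183 was thus below the Ctrl mouse BG3, and all groups overlapped. *S100a9* was between 0.318 and 0.861 CPM in Ctrl and between 1.19 and 3.02 CPM in ABpIF/+ mice, with no overlap. It had 36.1 CPM in BG38, 12.1 in BG90 and 1.40 in BG183, the last within the ABpIF/+ range. In ABpIF/+ vs Ctrl the log2 fold change of *S100a9* was 1.45 ± 0.61 with an adjusted p of 0.109, and that of *S100a8* was 1.24 ± 0.83 with an adjusted p of 0.354. Against Ctrl mouse BG3 alone, the value of *S100a8* turned to -0.26. In ABpIF/F vs Ctrl both were called higher, *S100a8* by 4.78 ± 0.88 (adjusted p = 0.00155) and *S100a9* by 4.82 ± 0.67 (adjusted p = 0.000142). There were 1.58 counts of *S100a9* per count of *S100a8* in BG38, 1.83 in BG90 and 2.87 in BG183, all within the range of Ctrl mice (0.84 to 4.4).

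*Retnlg*, a resistin-like gene of mature neutrophils, was between 0 and 0.249 CPM in Ctrl mice and between 0.0320 and 0.479 CPM in ABpIF/+ mice. It was at 7.06 CPM in BG38, 1.46 in BG90 and 0.261 in BG183. Ctrl and ABpIF/+ mice overlapped over most of their ranges. The log2 fold change was 0.76 ± 0.92 in ABpIF/+ vs Ctrl (adjusted p = 0.728) and 4.67 ± 0.88 in ABpIF/F vs Ctrl (adjusted p = 0.00106).

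*Csf3r*, the receptor for the growth factor G-CSF, was the 1 member with lower levels in ABpIF/+ than in Ctrl livers. Ctrl mice were between 1.70 and 3.13 CPM with a median of 2.13. ABpIF/+ mice were between 0.323 (BG31) and 1.51 CPM (BG88) with a median of 1.28, all below Ctrl. In ABpIF/F mice it was at 13.4 CPM in BG38, 7.47 in BG90 and 2.45 in BG183, which lay within the Ctrl range. The log2 fold change was -1.08 ± 0.37 in ABpIF/+ vs Ctrl, with an adjusted p of 0.0344 that misses the threshold. It was 1.75 ± 0.40 in ABpIF/F vs Ctrl (adjusted p = 0.00375).

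All 10 genes were called higher in ABpIF/F vs Ctrl, where 6.06% of the 20380 genes with a count were. *Elane* had a log2 fold change of 5.63 ± 0.97 (adjusted p = 0.000201), *Mpo* of 7.10 ± 1.15 (adjusted p = 0.000227) and *Prtn3* of 6.20 ± 0.96 (adjusted p = 0.000508). The pooled ratio was 69.9 for *Elane* (18.7 to 587) and 193 for *Mpo* (52.7 to 1600), again with exact counting intervals on 2 Ctrl counts each. Groups did not overlap in *Prtn3*, *S100a9*, *Ngp*, *Ltf* and *Retnlg*, that is in 5 of 10, against 12.4% of all genes with a count. For these 5 the exact permutation test (two-sided) gave its smallest possible p of 0.0119, and for *Mpo* it gave 0.0833. Without BG38, 7 of the 10 were called, and *S100a8*, *Retnlg* and *Csf3r* were lost. Without BG90, 9 were called, and *Csf3r* was lost. With BG183 as the only ABpIF/F mouse, a fit added after seeing the data, 0 of the 10 were called by edgeR, *Mpo* turned to -1.86, and the others were between 0.08 (*Csf3r*) and 2.18 (*Ngp*), except *Prtn3* with the highest value (adjusted p = 0.105). The lone ABpIF/F mouse is assumed there to vary like the other groups.

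**Figure D3:**
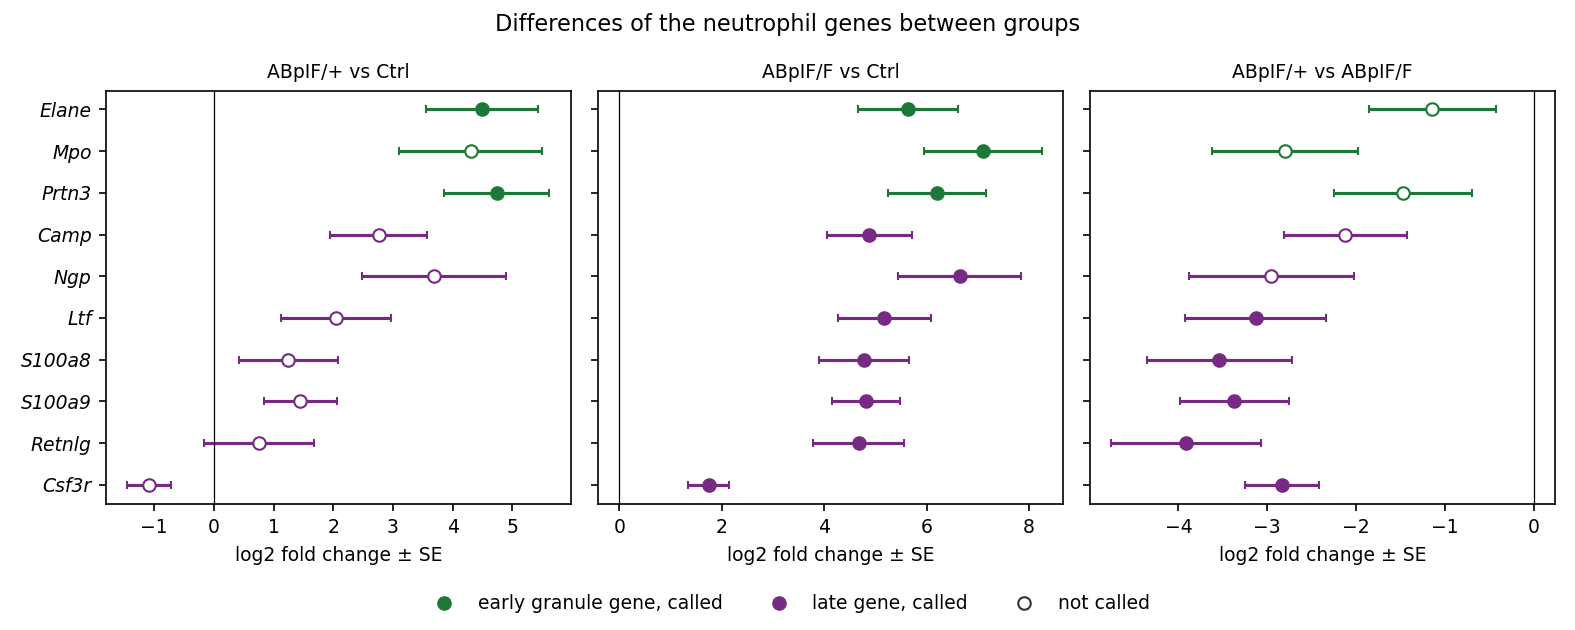
Log2 fold change ± SE of the 10 neutrophil genes in the 3 comparisons, from edgeR's quasi-likelihood fit, green for early and purple for late genes and filled where the gene was called. In ABpIF/+ vs Ctrl 2 early genes are filled, in ABpIF/F vs Ctrl all 10, and in ABpIF/+ vs ABpIF/F 5 late genes.

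In the comparison of ABpIF/+ with ABpIF/F the labels differ by the second floxed *Icmt* allele, with *Braf* and *Trp53* alike. Age, disease state and tumors elsewhere in the same liver cannot be told apart from this allele. Of the late genes 5 of 7 were called lower in ABpIF/+ mice, where 7.32% of the 20380 genes with a count were. Of the 3 early genes 0 were called by edgeR or DESeq2, and 1 (*Mpo*) had an unadjusted p under 0.05. The called genes were *Retnlg* (log2 fold change -3.91 ± 0.84, adjusted p = 0.00317), *S100a8* (-3.54 ± 0.82, adjusted p = 0.00791), *S100a9* (-3.37 ± 0.62, adjusted p = 0.00158), *Ltf* (-3.13 ± 0.79, adjusted p = 0.00849) and *Csf3r* (-2.83 ± 0.41, adjusted p = 8.4e-05). *Csf3r* was the only gene of the 10 in which all ABpIF/+ mice lay below all ABpIF/F mice, against 12.7% of all genes with a count. The early genes had values of -1.14 ± 0.71 for *Elane* (adjusted p = 0.338), -2.80 ± 0.82 for *Mpo* (adjusted p = 0.0225) and -1.47 ± 0.77 for *Prtn3* (adjusted p = 0.253). *Camp* (-2.12 ± 0.69, adjusted p = 0.0353) and *Ngp* (-2.96 ± 0.93, adjusted p = 0.0408) also missed the threshold, and an early gene that misses it is not shown to be equal in both groups. Without BG38, only *Csf3r* was called. With only the groups compared in the fit, 1 of the 10 was called, and with a score of clock genes in the model all 5 calls were lost. That score ran closely with the ABpIF/F group, so the fit can hardly separate score and group. With BG183 as the only ABpIF/F mouse all 5 were lost too, and the values turned to 0.80 for *S100a8*, 0.19 for *S100a9* and 0.0076 for *Ltf*. *S100a8* and *Ltf* lay so close to the threshold that *S100a8* lost its call on leaving out 12 of the 15 mice in turn, Ctrl mice included, and *Ltf* on leaving out 10.

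Summed over the 3 early genes, Ctrl mice were between 0.0706 and 0.684 CPM, ABpIF/+ mice between 3.81 and 21.9 CPM, and ABpIF/F mice at 57.9 (BG90), 17.1 (BG38) and 3.23 CPM (BG183). Summed over the 7 late genes, Ctrl mice were between 2.54 and 4.38 CPM and ABpIF/+ mice between 2.30 and 10.2 CPM. The late sum was 96.5 CPM in BG38, 34.9 in BG90 and 5.19 in BG183. The late sums of Ctrl and ABpIF/+ mice overlapped, whereas the early sums did not. *Csf3r*, which was lower in ABpIF/+ mice, made up 1.70 to 3.13 CPM of the late sum in Ctrl and 0.323 to 1.51 CPM in ABpIF/+ mice. *Prtn3* made up 81.25% to 100% of the early sum in Ctrl and 76.6% to 98.2% in ABpIF/+ mice. The contrast of the sums and the ratio of late to early thus rest in large part on these single genes. The late sum was 6.41 to 47 times the early sum in Ctrl mice and 0.177 to 1.59 times in ABpIF/+ mice, with no overlap. In ABpIF/F mice this ratio was 5.63 in BG38, 1.61 in BG183 and 0.604 in BG90. BG90 was thus the ABpIF/F mouse richest in early transcripts, all but a small share of them from *Prtn3*. BG38 was the richest in late transcripts and also in *Elane* and *Mpo*, with a summed CPM of 5.04 against 3.93 in BG90.

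**Figure D4:**
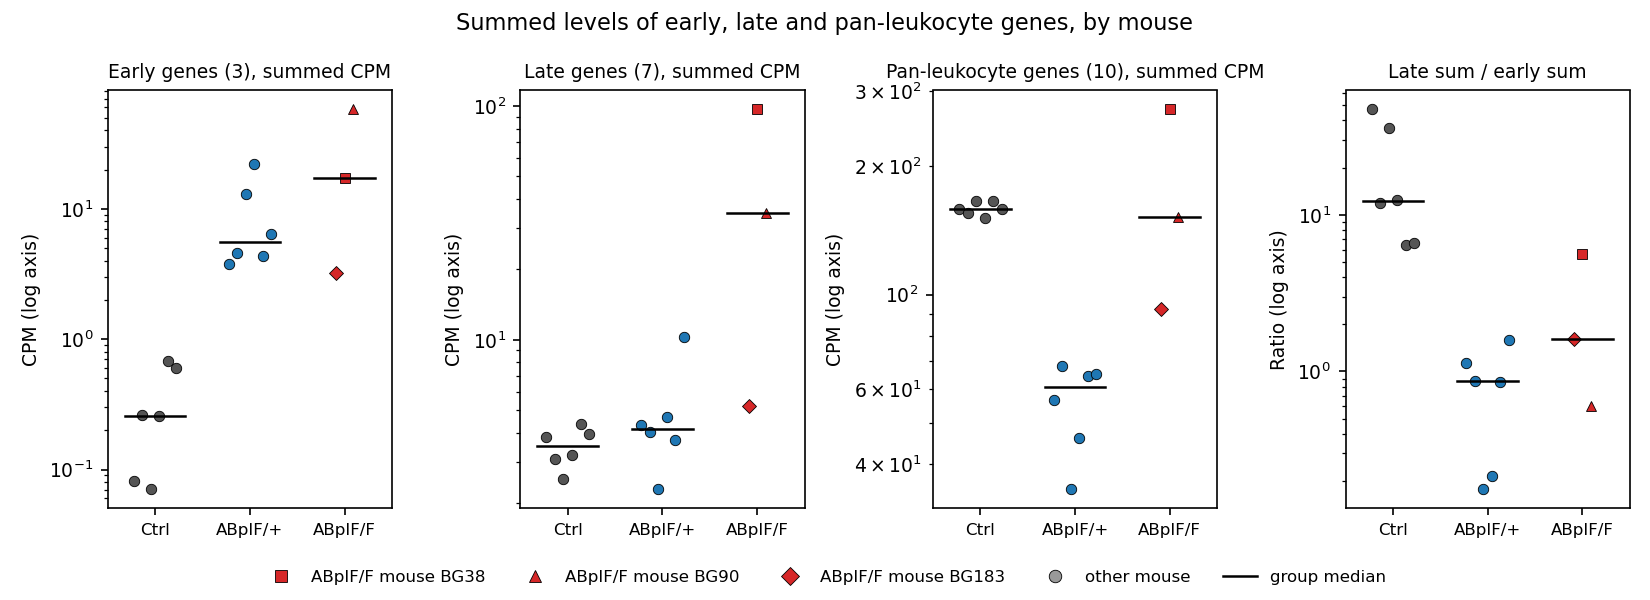
Summed CPM of the 3 early genes, the 7 late genes and 10 pan-leukocyte genes, and the ratio of the late to the early sum, in each of the 15 mice on logarithmic axes, with group medians as lines. Early sums of ABpIF/+ mice (3.81 to 21.9 CPM) are above those of Ctrl mice (0.0706 to 0.684 CPM), while their pan-leukocyte sums (35.0 to 68.1 CPM) are below (151 to 166 CPM).

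Genes expressed by all leukocytes were lower in ABpIF/+ than in Ctrl mice, where the early granule genes were higher. The summed CPM of 10 pan-leukocyte genes, among them *Ptprc* (CD45), was between 151 and 166 in Ctrl and between 35.0 and 68.1 in ABpIF/+ mice. It was 272 in BG38, 152 in BG90 and 92.4 in BG183. Of these genes 5 of 10 were lower in ABpIF/+ vs Ctrl, and the median over the 10 was -1.16 on the log2 scale, against 0 over all genes. The largest decreases were in *Lcp1*, the actin-bundling protein plastin 2 (-2.12 ± 0.17, adjusted p = 6.31e-09), and *Rac2*, a GTPase of blood cells (-1.52 ± 0.27, adjusted p = 0.00029). In ABpIF/F vs Ctrl 1 was higher, *Coro1a*, which encodes coronin 1A (1.34 ± 0.26, adjusted p = 0.000708). In ABpIF/+ vs ABpIF/F 9 of 10 were lower, led by *Ptprc* (-2.47 ± 0.37, adjusted p = 0.000274) and *Rac2* (-2.12 ± 0.31, adjusted p = 0.000109). Per 100 CPM of pan-leukocyte genes, the late sum was 1.53 to 2.64 in Ctrl and 5.79 to 15.7 in ABpIF/+ mice, and it was 35.5 in BG38, 23.0 in BG90 and 5.61 in BG183. The sum of *Elane* and *Mpo* on this scale was 0 to 0.0703 in Ctrl and 0.401 to 2.32 in ABpIF/+ mice, and it was 2.59 in BG90, 1.85 in BG38 and 0.0353 in BG183, the last within the Ctrl range. The scale follows *Lcp1* in large part, with a mean of 93.0 CPM in Ctrl and 21.4 CPM in ABpIF/+ mice. The means of the whole pan-leukocyte sum were 159 and 55.9 CPM.

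A further 56 genes of neutrophils, of 58 listed, were found in the table. In ABpIF/+ vs Ctrl 7 were called higher and 6 lower, in ABpIF/F vs Ctrl 16 higher, and in ABpIF/+ vs ABpIF/F 1 higher and 21 lower. Of all 20380 genes with a count, 1275 (6.26%) were higher and 1454 lower in ABpIF/+ vs Ctrl. In ABpIF/F vs Ctrl 1236 (6.06%) were higher and 647 lower, and in ABpIF/+ vs ABpIF/F 478 were higher and 1491 (7.32%) lower. These totals apply to the other gene lists as well. The median log2 fold changes of the 56 genes were -0.30, 2.05 and -2.01, against 0, 0.09 and -0.05 over all genes with a count. With genes at 0 in a group set to the floor of 3 counts over the group, and genes at or under the floor in both left out, these medians were -0.42 (48 genes), 2.06 (53) and -1.97 (52). Without BG38, 6 of the 56 were higher in ABpIF/F vs Ctrl and 8 lower in ABpIF/+ vs ABpIF/F.

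Among these were 8 other genes listed as early granule or promyelocyte genes. Of the 8, 1 was called lower in ABpIF/+ vs Ctrl, 1 higher in ABpIF/F vs Ctrl and 3 lower in ABpIF/+ vs ABpIF/F. The median log2 fold changes were -0.95, 1.64 and -2.52. With the floor of 3 counts they were -0.78 (6 genes), 2.21 (7) and -2.35 (7). The abundant granule gene *Lyz2* (lysozyme), also made by macrophages, was at 65.1 ± 7.6 CPM (SD, n = 6) in Ctrl and 31.4 ± 7.3 CPM (SD, n = 6) in ABpIF/+ mice, lower by 1.05 ± 0.23 (adjusted p = 0.00277). Several of the others were at very low counts. *Ctsg*, which encodes the azurophil protease cathepsin G, had 0 counts in the 6 Ctrl mice, 6 counts in ABpIF/+ and 24 in ABpIF/F mice. In ABpIF/F vs Ctrl it was called (adjusted p = 0.00222). Its ratio was 14.3 with Ctrl set to 3 counts over the group, and the exact 95% counting interval of its ratio began at 10.8. *Cst7*, which encodes the protease inhibitor cystatin F, was called lower in ABpIF/+ vs ABpIF/F, with 3 against 28 counts and a pooled ratio of 16.2 (5.02 to 83.5). *Ms4a3*, a marker of granulocyte-monocyte progenitors, had 3, 1 and 16 counts in Ctrl, ABpIF/+ and ABpIF/F mice, and *Prss57*, another azurophil protease, had 2, 0 and 3. *Ms4a3*, *Prss57* and the values of *Lyz2* are given here after their values were seen.

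The genes that were higher in ABpIF/+ vs Ctrl and rank first by fold change are in part made by other liver cells. *Lcn2*, the iron-scavenging lipocalin of specific granules and an acute phase gene of hepatocytes, was higher by 5.68 ± 0.65 (adjusted p = 1.98e-05) in ABpIF/+ and by 6.23 ± 0.69 (adjusted p = 3.37e-05) in ABpIF/F mice. *Chil3*, a chitinase-like protein of neutrophils and macrophages, was higher by 4.71 ± 0.78 (adjusted p = 0.000324) and by 6.11 ± 0.83 (adjusted p = 0.000103). *Hp* (haptoglobin), which hepatocytes secrete, was higher in ABpIF/+ mice by 2.08 ± 0.26 (adjusted p = 2.35e-06), with 238008 counts in Ctrl and 959017 in ABpIF/+ mice. *Hdc*, the enzyme that makes histamine, was higher by 2.25 ± 0.28 (adjusted p = 2.27e-05) in ABpIF/+ vs Ctrl and by 1.64 ± 0.36 (adjusted p = 0.00458) vs ABpIF/F. *Cd14*, the lipopolysaccharide co-receptor, was higher by 2.34 ± 0.45 (adjusted p = 0.00138). Which cells carry these transcripts was not tested.

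Beside *Lyz2*, the genes lower in ABpIF/+ vs Ctrl included surface and oxidase genes that neutrophils share with monocytes and macrophages. Among them were *Fpr1* (formyl peptide receptor, -2.20 ± 0.33, adjusted p = 2.03e-05) and *Ncf1* (the p47 subunit of the NADPH oxidase, -1.92 ± 0.26, adjusted p = 5.91e-06). The inhibitory receptors *Pilra* (-1.57 ± 0.26, adjusted p = 5.35e-05) and *Siglece* (-1.49 ± 0.27, adjusted p = 0.000147) also fell. All 4 genes were below every Ctrl mouse in every ABpIF/+ mouse.

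After *Lcn2* and *Chil3*, the genes that were higher in ABpIF/F vs Ctrl were led by *Cd177*, *Ctsg* and *Mmp8*. *Cd177*, the surface protein that binds proteinase 3 on human neutrophils, had 3 counts in Ctrl, 22 in ABpIF/+ and 147 in ABpIF/F mice. It was called in ABpIF/F vs Ctrl (adjusted p = 0.00209), with a pooled ratio of 87.8 (29.5 to 431), and groups overlapped, as the ABpIF/F mice ran from 0 to 2.85 CPM. *Mmp8*, neutrophil collagenase, was higher by 5.01 ± 0.88 (adjusted p = 0.0004) and overlapped as well, with 0.131 to 4.6 CPM in ABpIF/F mice. In ABpIF/+ vs ABpIF/F *Mmp8* was lower by 3.08 ± 0.77 (adjusted p = 0.00804), *Cxcr2*, the receptor for the ELR chemokines, by 2.82 ± 0.70 (adjusted p = 0.0058), and *Mmp9*, gelatinase B, by 2.66 ± 0.58 (adjusted p = 0.00243). *Ly6g*, the mouse neutrophil surface marker, had 0 counts in Ctrl, 1 in ABpIF/+ and 12 in ABpIF/F mice. It did not pass the threshold in ABpIF/F vs Ctrl (adjusted p = 0.0337), and is named after its values were seen.

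**Figure D5:**
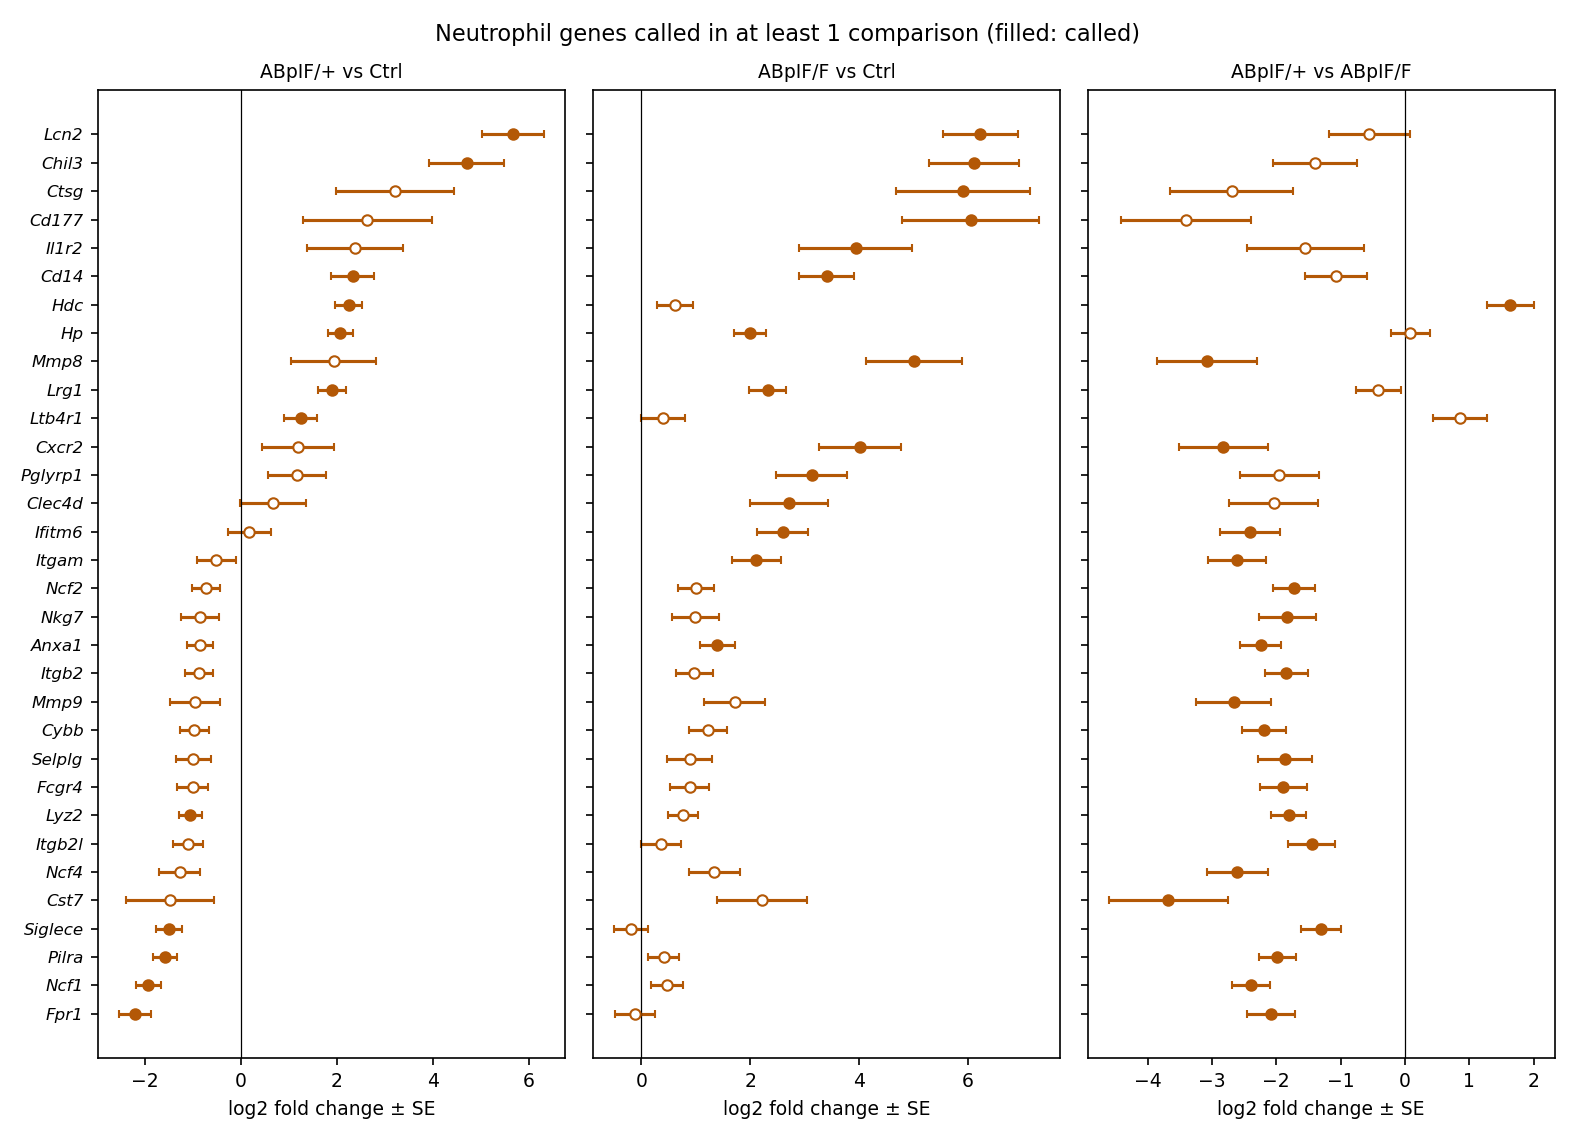
Log2 fold change ± SE of 32 other neutrophil genes that were called in at least 1 of the 3 comparisons, ordered by their value in ABpIF/+ vs Ctrl and filled where called. From top to bottom the first panel runs from *Lcn2* (5.68) to *Fpr1* (-2.20), and in the last panel 20 of the genes shown are called lower in ABpIF/+ than in ABpIF/F mice and *Hdc* is called higher.

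Signals that draw and feed neutrophils were measured on 18 genes. In ABpIF/+ vs Ctrl 1 was higher and 1 lower, and in ABpIF/F vs Ctrl 3 were higher. *Cxcl1*, the main chemokine for neutrophils in mouse liver, was higher by 3.01 ± 0.43 (adjusted p = 0.000122) in ABpIF/+ and by 4.77 ± 0.48 (adjusted p = 1.34e-05) in ABpIF/F mice, with no overlap with Ctrl. *Cxcl5*, another ELR chemokine, was called in ABpIF/F vs Ctrl (adjusted p = 0.00948) on 27 against 1 counts, a pooled ratio of 48.4 (7.97 to 1980). *Cxcl12*, which holds neutrophils in the marrow, was lower in ABpIF/+ mice by 1.06 ± 0.15 (adjusted p = 9.83e-06). *Csf3*, the gene of G-CSF and thus of the ligand of *Csf3r*, had 0 counts in Ctrl, 11 in ABpIF/+ and 3 in ABpIF/F mice, and was not called (adjusted p = 0.0625 and 0.279). *Csf3* is named outside the rule.

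Of 8 transcription factors of granulopoiesis, *Cebpe*, which switches on the specific granule genes, was lower in ABpIF/+ vs Ctrl by 1.93 ± 0.20 (adjusted p = 1.89e-07) and vs ABpIF/F by 1.19 ± 0.24 (adjusted p = 0.001). It was at 4.85 to 7.22 CPM in Ctrl livers, where *Camp*, *Ngp* and *Ltf* were near 0. In ABpIF/F mice *Cebpe* was at 3.32 to 3.61 CPM and did not follow the spread of these genes. Which cells carry *Cebpe* was not tested. *Cebpd*, also an acute phase factor of hepatocytes, was higher in ABpIF/+ mice by 1.68 ± 0.29 (adjusted p = 0.000298) vs Ctrl and by 1.61 ± 0.37 (adjusted p = 0.00569) vs ABpIF/F. *Spi1*, which encodes PU.1, was lower in ABpIF/+ than in ABpIF/F mice by 1.58 ± 0.26 (adjusted p = 0.000196). The value of *Spi1* in ABpIF/+ vs Ctrl was -0.86 ± 0.23 (adjusted p = 0.0066), with a size below 1, and in ABpIF/F vs Ctrl it was 0.73 ± 0.26 (adjusted p = 0.0633).

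Of 10 inhibitors of granule proteases, 5 were higher and 2 lower in ABpIF/+ vs Ctrl, and 3 were higher in ABpIF/F vs Ctrl. *Serpinb1a*, an intracellular inhibitor of elastase, proteinase 3 and cathepsin G, was lower in ABpIF/+ mice by 4.97 ± 0.72 (adjusted p = 8.52e-05), with 848 counts in Ctrl and 27 in ABpIF/+ mice and no overlap. It had a value of -2.35 ± 0.77 in ABpIF/F vs Ctrl (adjusted p = 0.0472). *Wfdc2* was lower in ABpIF/+ mice by 1.90 ± 0.39 (adjusted p = 0.000878). *Slpi*, a secreted inhibitor of elastase, was higher by 3.25 ± 0.51 (adjusted p = 0.000291) in ABpIF/+ and by 2.79 ± 0.56 (adjusted p = 0.00328) in ABpIF/F mice. *Serpina1e*, a copy of the alpha-1 antitrypsin gene, was higher in ABpIF/+ mice by 2.90 ± 0.67 (adjusted p = 0.0057), but reads of the near-identical *Serpina1* copies could be split by the counting, so values of single copies are uncertain. *Serpina3n*, an acute phase inhibitor, was higher in ABpIF/F mice by 1.98 ± 0.27 (adjusted p = 2.33e-05).

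Markers of some other blood cells differed between these groups, and their part in the results was not tested. Of 10 monocyte genes 7 were higher in ABpIF/F vs Ctrl, led by *Vcan* (5.54 ± 0.70, adjusted p = 3.03e-05) and *F13a1* (3.96 ± 0.66, adjusted p = 0.000209), and 9 were lower in ABpIF/+ vs ABpIF/F, led by *Vcan* (-4.66 ± 0.66, adjusted p = 0.000137) and *Ccr2* (-4.07 ± 0.52, adjusted p = 4.57e-05). *Vcan* ran from 0.751 to 20.3 CPM in the 3 ABpIF/F mice. Of the same genes *Ace* was higher and *Csf1r* lower in ABpIF/+ vs Ctrl. Of 12 macrophage genes 5 were lower in ABpIF/+ vs Ctrl, led by *Adgre1* (F4/80, -1.92 ± 0.24, adjusted p = 9.07e-06) and *Timd4* (-1.85 ± 0.26, adjusted p = 1.24e-05). In ABpIF/F vs Ctrl 0 of the 12 were called, and in ABpIF/+ vs ABpIF/F 6 were lower. The summed macrophage CPM was 393 to 551 in Ctrl, 168 to 316 in ABpIF/+ and 344 to 679 in ABpIF/F mice. Of the eosinophil genes, *Ear1* and *Ear6* had 0 counts and *Epx* 1 count over all 15 mice. *Ccr3*, the eotaxin receptor, was called lower in ABpIF/+ vs Ctrl (adjusted p = 0.00201), with 2 against 45 counts and a pooled ratio of 21.9 (5.71 to 186). The eosinophil sum, most of it *Ear2*, was 1.76 to 2.83 CPM in Ctrl, 0.851 to 4.6 in ABpIF/+ and 2.38 to 9.72 in ABpIF/F mice, with the highest value in BG38. *Mcpt8* of basophils had 1 count over all mice. Platelet genes were higher in both Braf groups (3 and 5 of 8), among them *Gp9* and *Treml1*.

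Genes of dividing cells were lower in ABpIF/+ mice. Of 10 proliferation genes 7 were lower in ABpIF/+ vs Ctrl, led by *Ccnb1* (-4.42 ± 0.63, adjusted p = 1.16e-05) and *Top2a* (-4.02 ± 0.31, adjusted p = 2.16e-09). Their summed CPM was 13.4 to 25.8 in Ctrl, 4.15 to 6.35 in ABpIF/+ and 13.9 to 28.7 in ABpIF/F mice. Of 9 genes of blood stem and progenitor cells 2 were lower in ABpIF/+ vs Ctrl, *Ly6a* (-3.22 ± 0.50, adjusted p = 0.000264) and *Kit* (-1.73 ± 0.30, adjusted p = 0.000132). In ABpIF/F vs Ctrl 2 were higher, *Sox4* (3.41 ± 0.45, adjusted p = 4.31e-05) and *Cd34* (1.38 ± 0.34, adjusted p = 0.00559), both of which other liver cells also express, and *Hlf*, a clock output gene of hepatocytes, was lower. A score of clock genes was between 1.25 and 3.09 in ABpIF/F mice and between -1.30 and -0.19 in the others except malpa387 (2.26). The score thus ran so closely with the ABpIF/F group that a fit holding both can hardly separate them. With this score as a covariate, 0 of the 10 neutrophil genes were called by edgeR in ABpIF/F vs Ctrl, at log2 fold changes between 1.78 and 6.20 and adjusted p-values between 0.0549 and 0.183, and *Elane* and *Prtn3* stayed called in ABpIF/+ vs Ctrl with *Camp* added.

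The genes whose levels followed the members most closely from mouse to mouse were taken from the 15610 genes whose mean CPM was 0.1 or more, by Pearson's r of log2 CPM deviations from the group means over the 15 mice, as a description. For the mean of the early genes they were *Cxcr2* (0.89), *Gtse1* (0.87), *Klra2* (0.87), *Plac8* (0.86) and *Sema5a* (0.84). For the mean of the late genes they were *Fcgr3* (0.93), *Ppfia4* (0.92), *Arhgdib* (0.92), *Lyz2* (0.91) and *Sema5a* (0.90). *Cxcr2* and *Fcgr3*, an Fc receptor, are among the listed neutrophil surface genes, *Lyz2* (lysozyme) among the listed granule genes and *Arhgdib* among the pan-leukocyte genes. With a prior count of 0.5 in place of 2, 4 of the 5 genes were the same for each set. The ABpIF/F mice spread most widely in both sets and weigh most on these correlations.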

How the data were processed

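Per the labels and the study's methods, total RNA from frozen liver was extracted with Trizol and made into stranded mRNA libraries. The authors aligned the paired reads with HISAT2 (2.21 in the submitters' processing notes) to mm10 (GRCm38) and counted them with featureCounts 2.0.8. The annotation and the strand setting are not given in the sources used here. The deposited values are raw counts per gene in 15 columns, 1 per mouse. The study lists 23 samples, as 8 mice have 2, and nothing says that they are more than libraries of 1 liver. Both deposited tables hold the same counts (0 cells differ). The columns of the authors' own comparisons, with fold changes and p-values, were not used.

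Counts of 27179 genes were fitted in R 4.3.3 with edgeR 4.0.16 (TMM, robust quasi-likelihood F-test in its older form, 3 groups in 1 fit, no filter). SEs are the absolute log2 fold change over the square root of F. DESeq2 1.42.0 was an alternative, and the fit was tested on simulated data. Log2 CPM used a prior count of 2, and the exact permutation tests were two-sided. The named genes are the 10 members, per comparison and direction up to 5 called genes of the other neutrophil genes and up to 2 of each further list, by absolute log2 fold change, the 5 genes most like each set of members, and *Icmt*. The members and lists were chosen with earlier results of these data known. Lists also covered red blood cells, lymphocytes and hepatocytes: in ABpIF/+ vs Ctrl, ABpIF/F vs Ctrl and ABpIF/+ vs ABpIF/F, called genes (higher and lower) were 3 and 2, 1 and 0, and 1 and 0 of 11 erythroid genes, 1 and 3, 1 and 0, and 0 and 4 of 11 lymphocyte genes, and 2 and 0, 3 and 1, and 0 and 0 of 10 hepatocyte genes. Positions came from GENCODE M21 and promoters from RefSeq. Not every gene that the rule names is printed, and 1 of the other neutrophil genes is counted in totals but not reported here. Reads, proteins and survival were not analysed here.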

Additional observations from a re-analysis of the deposited data

Results flagged for a closer look

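In 24 groups of 6 mice (10 genes, the early sum and the late sum, in Ctrl and in ABpIF/+), 6 had a mouse that stood far from the others by Dixon's test, where chance gives nominally about 1 in 20. The sums hold the genes, so these tests overlap, and where the other mice are at 0, as in *Elane*, any count stands apart. In Ctrl mice these were *Elane* in malpa462 (0.0746 CPM, the others 0), *S100a8* in BG3 (1.03 CPM, the next 0.373) and *Camp* in malpa387 (0.149 CPM, the next 0.0353). In ABpIF/+ mice all 3 were BG88, with *S100a9* at 3.02 CPM (next 1.44), *Ngp* at 2.25 CPM (next 0.544) and the late sum at 10.2 CPM (next 4.68).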

How the results depend on the processing

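No paired analysis was possible because the columns are named by mouse and carry no replicate number, and the suffixes in the sample titles mark libraries of 1 mouse. Of the 10 members, 2 were called in ABpIF/+ vs Ctrl. This count was 6 with DESeq2, 6 at an adjusted p below 0.05, 6 with only the groups compared, 4 without robust estimation and 0 with BG3 as the only Ctrl mouse. It was between 2 and 7 on leaving out 1 mouse, 7 without BG183. The 2 and the 4 were all higher. Each count of 6 was 5 higher and 1 lower, and the 7 was 6 higher and 1 lower, the lower gene being *Csf3r*. Of the 10 called in ABpIF/F vs Ctrl, 0 were left with BG3 as the only Ctrl mouse, with the score of clock genes in the model, or with BG183 as the only ABpIF/F mouse, and between 7 (without BG38) and 10 on leaving out 1 mouse. Of the 5 in ABpIF/+ vs ABpIF/F the count was 8 at an adjusted p below 0.05, 1 with only the groups compared, 0 with the clock gene score, 0 with BG183 alone and between 1 (without BG38) and 8 (without BG183) on leaving out 1 mouse. It was 3 without each of malpa454, malpa458, malpa462, BG175, BG30, BG31, BG55 and BG90. The 13 other neutrophil genes called in ABpIF/+ vs Ctrl became 7 at a log2 fold change of 2 or more and 3 with BG3 alone. The 16 in ABpIF/F vs Ctrl became 26 at an adjusted p below 0.05, 1 with BG3 alone, 0 with the clock gene score, 1 with BG183 alone and 6 (without BG38) to 26 (without BG183) on leaving out 1 mouse. The 22 in ABpIF/+ vs ABpIF/F became 12 at a log2 fold change of 2 or more, 3 with the clock gene score, 0 with BG183 alone and 8 (without BG38) to 28 (without BG183).

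The direction turned only with BG183 as the only ABpIF/F mouse, among called values. *Mpo* in ABpIF/F vs Ctrl was then -1.86, and in ABpIF/+ vs ABpIF/F *S100a8* was 0.80, *S100a9* 0.19, *Ltf* 0.0076, the early median 3.30 and the late median 0.19. The fits with 1 mouse in a group have fewer samples by construction. The clock gene score ran so closely with the ABpIF/F group that fits with it can hardly separate score and group. The cause of the other changes was not tested. DESeq2's size factors in edgeR and total counts without scaling left all 30 member results on the same side of the threshold. Counts of under 10 in most mice limit *Elane*, *Mpo*, *Camp*, *Ngp*, *Ltf* and *Retnlg* in Ctrl and ABpIF/+ livers.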
